A study of Danio rerio with 7 samples.

Results

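The 10 genes described here are 8 enzymes of cholesterol synthesis (hmgcs1, hmgcra, idi1, sqlea, lss, cyp51, msmo1 and dhcr7), the sterol sensor gene insig1 and the lipoprotein receptor gene ldlra. They were taken by symbol from a table of 30421 genes, and all 10 were present and passed the low-count filter. They were compared in 6 bulk RNA-seq libraries of pooled zebrafish (Danio rerio) heads at 5 days post fertilization (dpf). Of these, 3 came from wild type larvae (WT 66, 67 and 68) and 3 from larvae labelled hm41 mutant (hm41 69, 70 and 71), of a line with a leaky phenotype. The design text places the lesion of that line at spock1 on chromosome 14, in a series concerned with the blood-brain barrier. The labels do not say how many larvae each pool held, whether the hm41 larvae were homozygous, or whether the pools came from separate clutches, so the p-values measure the spread between these libraries, which may be technical.

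Cells build cholesterol from acetyl-CoA through mevalonate, isoprenoid units and squalene, which is closed into lanosterol and then trimmed to cholesterol. The factor SREBP2 (gene srebf2) switches on the enzymes of this route, the LDL receptor and INSIG1 when membrane sterols fall, and INSIG1 holds SREBP2 and its escort SCAP back when sterols are plentiful. In mammals, lipoproteins of the blood do not cross the blood-brain barrier, and the brain makes its own cholesterol, in astrocytes, neurons and the oligodendrocytes that lay down myelin.

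Between the genotypes, none of the 10 genes passed the test, and the feature that stood out was 1 library, hm41 71. That library had the highest level of 8 of the 10 genes, and of hmgcra, lss and msmo1 it had more than 2.8 times the level of any other library. In the other hm41 libraries these 3 genes lay within the WT range or close to it. Levels are given in CPM (counts per 1000000 of the library total after scaling by normalization factors), and they describe a gene across libraries, not one gene against another, since they are not divided by gene length. In pooled heads, fewer cells of a type and less RNA per cell cannot be told apart.

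The 6 libraries held 33776039 to 114604280 counts. Most were taken by a few rows: the 8 most abundant rows held 93.6% to 95.7%, which left 1664899 to 4959770 counts for all other genes, fewest in WT 67. This remainder was also small in hm41 69 (2142677 counts) and hm41 71 (2341315 counts), against 4509229 to 4959770 in WT 66, WT 68 and hm41 70. The 10 genes had between 5 and 1114 counts per library. For ldlra, cyp51 and insig1 the estimated counts were not whole, and how their shared reads were divided between genes is uncertain.

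HMG-CoA synthase (hmgcs1) makes the substrate of the rate-limiting step. It had 3.39, 2.21 and 2.01 CPM in WT 66, 67 and 68, and 2.02, 2.09 and 4.13 CPM in hm41 69, 70 and 71. The genotypes overlapped, with hm41 71 highest and WT 66 next, and the other 4 libraries lay close together. On the log2 scale the fold change of hm41 over WT was 0.09, with a 95% confidence interval of -0.51 to 0.68. Its adjusted p was 0.948 (quasi-likelihood test of edgeR, Benjamini-Hochberg method over 19275 genes).

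HMG-CoA reductase (hmgcra) catalyses the rate-limiting step and is the target of statins. It had 6.07, 5.54 and 4.15 CPM in WT 66, 67 and 68, from 554, 168 and 353 counts. In hm41 69, 70 and 71 it had 5.37, 4.59 and 17.3 CPM, from 210, 372 and 708 counts. A single library, hm41 71, thus lay 2.85 times above the next highest, while hm41 69 and 70 lay between the lowest and the highest WT library. WT had a mean of 5.26 ± 0.993 CPM and hm41 one of 9.08 ± 7.12 CPM (SD, n = 3 each), and the log2 fold change was 0.78 with a wide 95% confidence interval of -0.90 to 2.46 (adjusted p = 0.745, edgeR). Without hm41 71 it was -0.07 (-0.49 to 0.36, adjusted p = 0.970, edgeR).

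Isopentenyl diphosphate isomerase (idi1) balances the isoprenoid building blocks. Its levels were 1.88, 2.77 and 2.15 CPM in the WT libraries and 1.48, 2.69 and 3.37 CPM in hm41 69, 70 and 71. The hm41 libraries held both the lowest and the highest level. The log2 fold change came to 0.18 (-0.35 to 0.71, 95% confidence interval) and did not pass (adjusted p = 0.862, edgeR).

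Squalene epoxidase (sqlea) opens the route from squalene to the sterols. It had 0.351, 0.495 and 0.400 CPM in the WT libraries, and 0.128, 0.185 and 0.830 CPM in hm41 69, 70 and 71, from 5 to 34 counts in each library. The hm41 libraries thus lay on both sides of WT, with 69 and 70 below every WT library and 71 above all of them. Over all 6 libraries the log2 fold change came to -0.14 (-1.31 to 1.02, 95% confidence interval, adjusted p = 0.955, edgeR). Without hm41 71 it was -1.31 (-2.43 to -0.19), which did not pass over all genes (adjusted p = 0.530, edgeR).

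Lanosterol synthase (lss) closes the first sterol ring system. It had 0.438, 0.297 and 0.165 CPM in WT 66, 67 and 68, and 0.511, 0.370 and 1.56 CPM in hm41 69, 70 and 71. The genotypes overlapped through hm41 70 and WT 66, and hm41 71 was 3.06 times above the next highest library. With a log2 fold change of 1.39 ± 0.531 (SE), a 2.62-fold higher fitted level, lss had the largest difference of the 10 genes, at an unadjusted p of 0.0196 and an adjusted p of 0.377 (edgeR). Without hm41 71 it was 0.54 (95% confidence interval -0.53 to 1.60).

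The lanosterol demethylase gene cyp51 had 4.43, 4.46 and 3.89 CPM in the WT libraries and 5.83, 4.59 and 8.08 CPM in hm41 69, 70 and 71. Every hm41 library was above every WT library, by a narrow margin for hm41 70. The log2 fold change was 0.53 ± 0.192 (SE), with an unadjusted p of 0.0125 and an adjusted p of 0.327 (edgeR), the smallest of the 10. Without hm41 71 it was 0.30 (95% confidence interval -0.10 to 0.70).

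Methylsterol monooxygenase (msmo1), which takes part in the removal of methyl groups from the sterol ring, had 0.866, 1.22 and 0.811 CPM in the WT libraries. It had 0.843, 1.00 and 3.52 CPM in hm41 69, 70 and 71. As for hmgcra, hm41 69 and 70 were within the WT range and hm41 71 stood alone, 2.88 times above the next highest library. The log2 fold change came to 0.90 (-0.40 to 2.20, 95% confidence interval, adjusted p = 0.637, edgeR) and -0.002 without hm41 71 (-0.68 to 0.68).

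The reductase dhcr7, which makes cholesterol from its immediate precursor, did not share this pattern. It had 1.62, 2.84 and 2.65 CPM in the WT libraries and 1.99, 1.90 and 2.47 CPM in the hm41 libraries. All hm41 values lay inside the WT range, and hm41 71 was below WT 67 and WT 68. Its log2 fold change came to -0.14 (-0.63 to 0.34, 95% confidence interval, adjusted p = 0.881, edgeR).

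Among the genes outside synthesis, insig1 had 4.55, 4.32 and 3.27 CPM in the WT libraries and 4.60, 5.38 and 6.20 CPM in hm41 69, 70 and 71. The genotypes did not overlap, although WT 66 and hm41 69 almost met. WT had a mean of 4.05 ± 0.683 CPM and hm41 one of 5.39 ± 0.801 CPM (SD, n = 3 each), and the log2 fold change was 0.42 ± 0.181 (SE), with an unadjusted p of 0.0311 and an adjusted p of 0.426 (edgeR). Without hm41 71 it was 0.33 (95% confidence interval -0.09 to 0.74).

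The LDL receptor gene ldlra, whose product takes up cholesterol-rich lipoproteins, had 10.5, 15.4 and 10.2 CPM in WT and 7.28, 13.8 and 12.6 CPM in hm41 69, 70 and 71. The lowest level was in hm41 69 and the highest in WT 67, so hm41 71 did not stand out here. Its log2 fold change came to -0.09 (-0.56 to 0.38, 95% confidence interval, adjusted p = 0.930, edgeR).

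**Figure D1:**
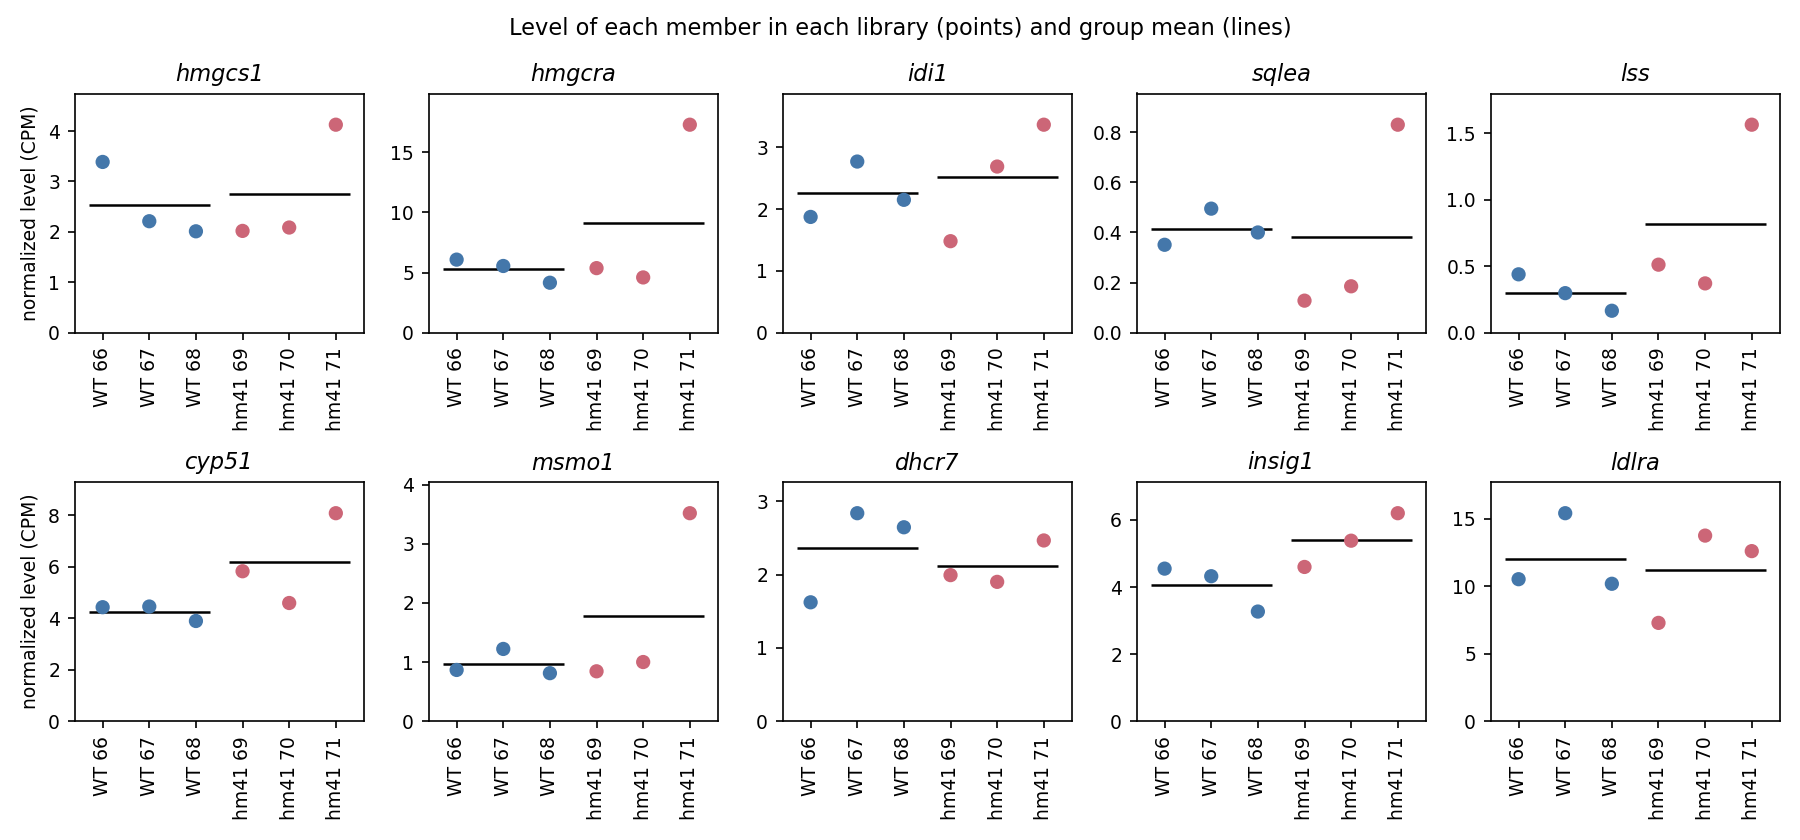
Normalized level in CPM (y axis, from 0, scaled for each gene) of the 10 genes in the 3 WT libraries (blue) and the 3 hm41 libraries (red), with a line at each group mean. The library hm41 71 is highest in 8 of the 10 genes, all but dhcr7 and ldlra, and stands far above the rest in hmgcra (17.3 CPM), lss (1.56 CPM) and msmo1 (3.52 CPM).

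Across the 10 genes, 0 were called in either direction at an adjusted p under 0.05, where 0.0571% of all tested genes were (11 of 19275, edgeR). At an unadjusted p under 0.05, 3 of the 10 (lss, cyp51 and insig1) were higher and 0 lower in hm41, against 5.35% of all tested genes higher and 5.05% lower. Without hm41 71 only sqlea was under that p, and it was lower in hm41. DESeq2 gave an adjusted p to 4 of the 10, hmgcra, ldlra, cyp51 and insig1, and none of these passed (lowest 0.131, for cyp51), against 5.22% of the genes with an adjusted p. At an unadjusted p under 0.05 it had 4 of the 10 (lss, cyp51, insig1 and msmo1), against 5.99% of genes. The genotypes did not overlap, with hm41 higher, in 2 of the 10 (cyp51 and insig1), against 8.09% of all tested genes, and with hm41 lower in 0, against 8.44%. The median log2 fold change was 0.30 with 7 genes above 0, beside -0.02 over all tested genes, of which 47.9% were above 0. Without hm41 71 the median was -0.06, with 3 genes above 0.

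The spread between replicate libraries was wide for several of these genes. The biological coefficient of variation, which is the relative spread between libraries beyond counting noise, was 0.508 for hmgcra, where genes of the same abundance had 0.164. A ratio this high was reached by 0.363% of all tested genes. It was 0.442 against 0.198 for msmo1, a ratio reached by 0.674%, and 0.409 against 0.275 for lss, reached by 1.86%. In these 3 genes hm41 71 stood far above the rest, so their spread holds that library's values and is not a separate observation. Without hm41 71 the SE of the log2 fold change fell from 0.627 to 0.200 for hmgcra and from 0.555 to 0.322 for msmo1. For lss it went from 0.531 to 0.506. The ratios of hmgcs1, sqlea, ldlra and idi1 were reached by 2.71%, 3.05%, 6.54% and 7.21%. By contrast insig1, at 0.160 against 0.162, spread no more than other genes of its abundance. The values of cyp51 (0.171 against 0.162, a ratio reached by 20.9%) and dhcr7 (0.186 against 0.177, reached by 21.9%) were also close to it.

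The pattern of hm41 71 was set against that of all genes as a description, since the library was singled out after its values were seen. It was the highest of the 6 libraries for 18.9% of all tested genes and for 8 of these 10. It was at least 2-fold above the next highest library for 49 of 19275 genes (0.254%), and hmgcra, lss and msmo1 were 3 of those 49. For each of the other 5 libraries, 11 to 130 genes stood out in this way, most in WT 67, and none was among the 10. There were 130 in WT 67 and 21 in hm41 69, which like hm41 71 had few counts outside the most abundant rows. In WT 66, WT 68 and hm41 70 there were 11 to 16. The part of sequencing depth in these numbers was not tested.

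**Figure D2:**
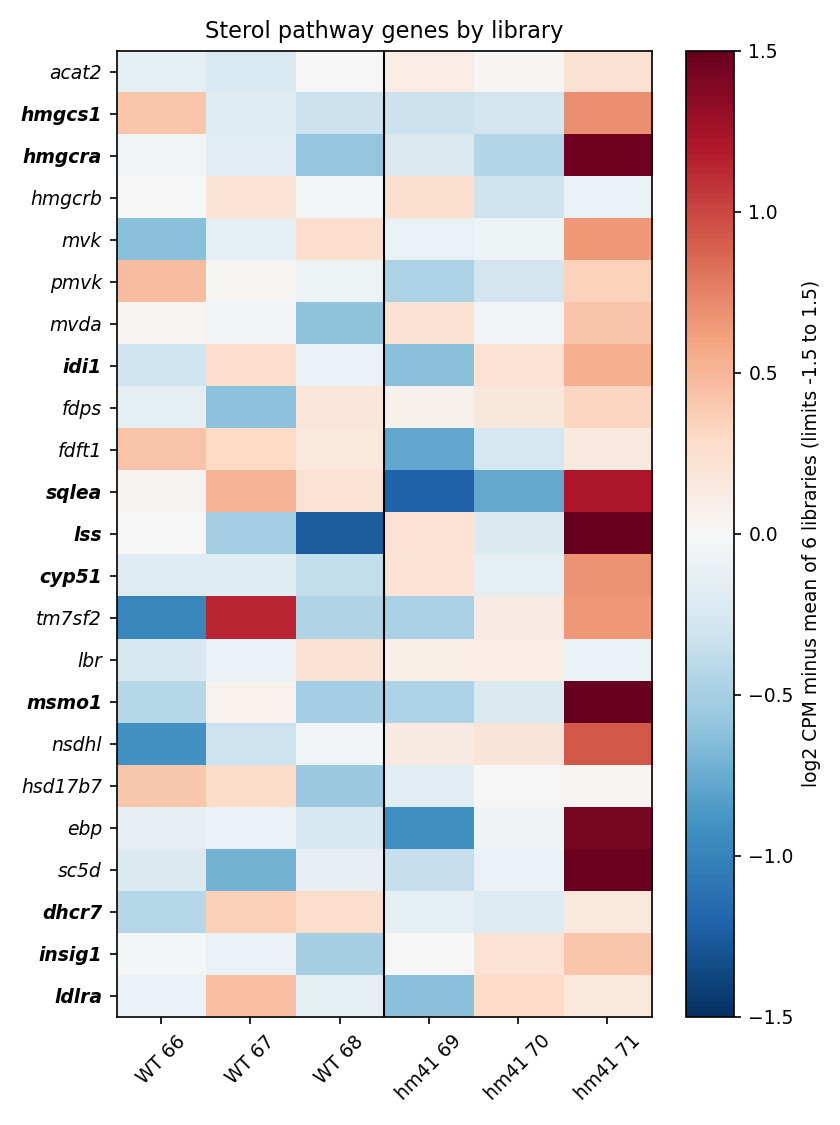
Level of 23 sterol pathway genes (rows, in pathway order, with the 10 genes of the report in bold and insig1 and ldlra last) in the 6 libraries (columns), as log2 CPM minus the mean of the 6 libraries, with red above and blue below that mean. The column of hm41 71 is red for most rows, while the other columns are mixed or pale.

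The other enzymes of the pathway were followed through a list of 14 genes, of which 13 passed the low-count filter. None of the 13 was called by edgeR, where 0.0571% of all tested genes were. At an unadjusted p under 0.05 there were 0, against 5.35% of all tested genes higher and 5.05% lower (edgeR). Values of the 13 were higher in hm41 for 9 and lower for 4, with a median log2 fold change of 0.23, and of 0.07 without hm41 71. Again hm41 71 was highest for 7 of the 13, against 18.9% of all tested genes. It was at least 2-fold above the next library for 0.254% of all tested genes and for 2 of the 13. These were sc5d, a late desaturase of the sterol ring (1.17 CPM in hm41 71, 0.231 to 0.370 CPM in the others), and ebp, the isomerase named for binding emopamil (1.56 CPM, against 0.281 to 0.543 CPM). The gene ebp is named after its values were seen, and its log2 fold change of 0.64 turned to -0.21 without hm41 71.

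The smallest p-values of that list belonged to sc5d, nsdhl and fdft1. The log2 fold change was 0.90 ± 0.474 for sc5d (SE, adjusted p = 0.530) and 0.94 ± 0.519 for nsdhl, a dehydrogenase of sterol demethylation (adjusted p = 0.557, edgeR). Without hm41 71 sc5d came to 0.105 and nsdhl to 0.64. The gene nsdhl lies on chromosome 14 in the GRCz12tu annotation, the chromosome that the design text links to the lesion, and none of the 10 genes does. The fatty acid elongase gene elovl6 and the farnesyltransferase subunit gene fnta, described further on, lie on it too. So do abca1b, plp1a, sncb and arr3b of the other lists, named here for their position alone. The share of all tested genes on that chromosome was not determined. Squalene synthase (fdft1) had the opposite sign, with 0.691, 0.627 and 0.564 CPM in WT and 0.281, 0.420 and 0.562 CPM in hm41 (log2 fold change -0.57 ± 0.361, SE, adjusted p = 0.614, edgeR). In fdft1 the genotypes did not overlap, as for 8.44% of all tested genes with hm41 lower, but hm41 71 almost reached WT 68. With hm41 higher, they did not overlap in 2 of the 13, nsdhl among them, against 8.09% of all tested genes.

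Zebrafish keep a pair of genes for several of these steps. The second reductase gene hmgcrb had 1.86, 2.15 and 1.83 CPM in WT and 2.20, 1.49 and 1.73 CPM in hm41, and hm41 71 was not high (log2 fold change -0.11, 95% confidence interval -0.57 to 0.35). The same held for ldlrb, with 9.61, 7.16 and 5.46 CPM in WT and 6.36, 6.79 and 7.33 CPM in hm41 (-0.12, -0.51 to 0.27), and for insig2, with a log2 fold change of -0.18 (-1.31 to 0.95). The second squalene epoxidase gene, sqleb, was too low to be tested. It had 10, 2 and 4 counts in WT and 0, 1 and 0 counts in hm41 69, 70 and 71.

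**Figure D3:**
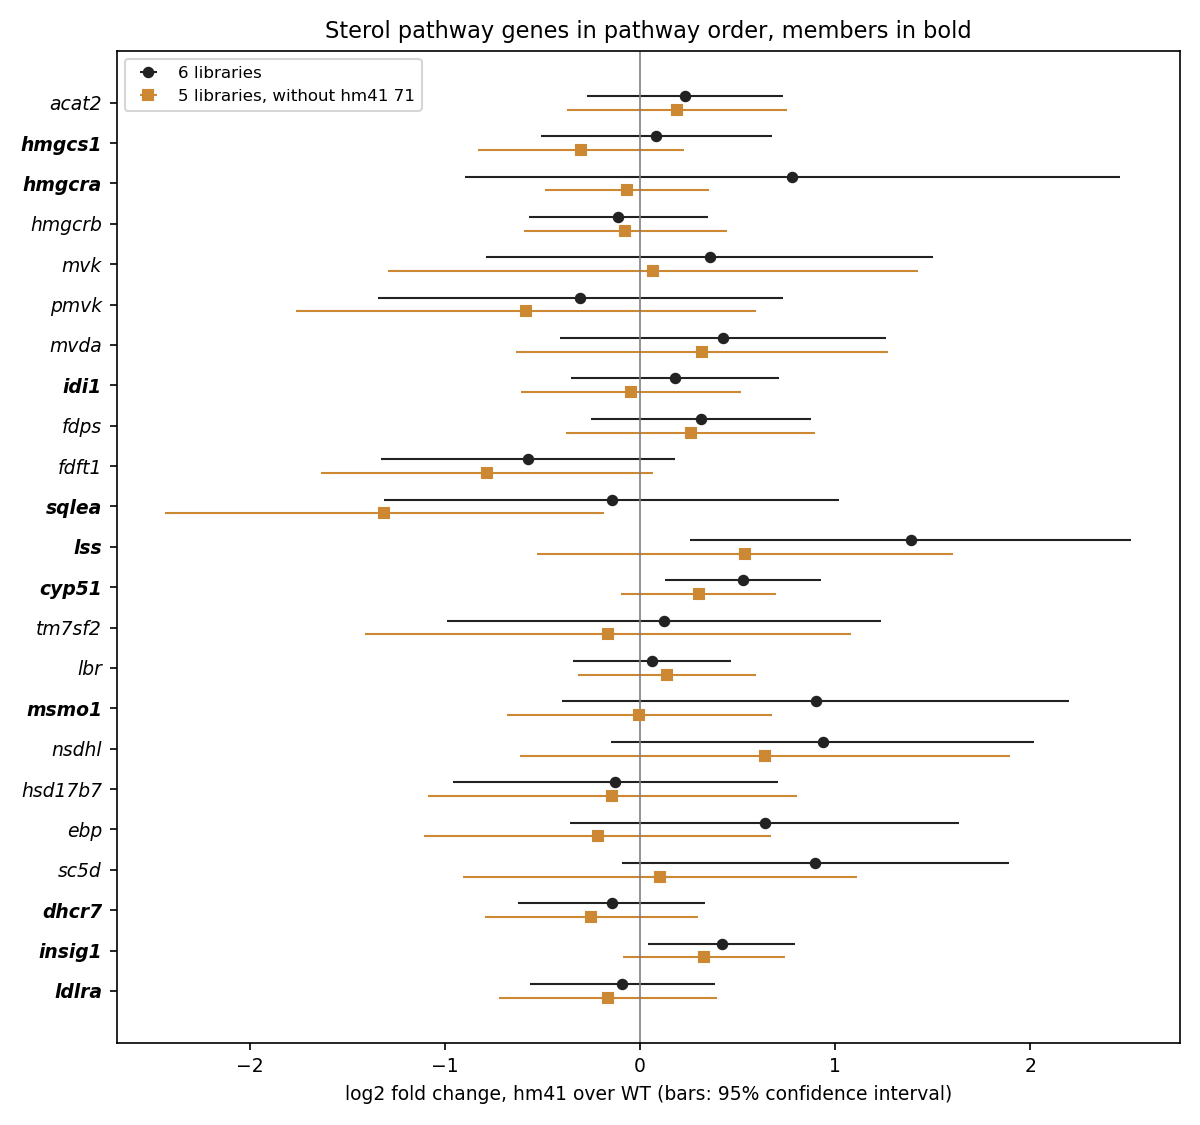
Log2 fold change of hm41 over WT (x axis, with 95% confidence intervals) for 23 sterol pathway genes in pathway order, from all 6 libraries (black circles) and without hm41 71 (orange squares), with the 10 genes of the report in bold. The interval of hmgcra narrows from -0.90 to 2.46 with all libraries to -0.49 to 0.36 without hm41 71, and that of sqlea moves below 0.

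Of 9 genes of sterol sensing and SREBP activation, which control the pathway, hm41 71 was highest for 2, against 18.9% of all tested genes. It was at least 2-fold above the next library for 0 of the 9, against 0.254% of all tested genes. Between the genotypes 0 were called, where 0.0571% of all tested genes were (edgeR). At an unadjusted p under 0.05 there were 0, against 5.35% of all tested genes higher and 5.05% lower (edgeR). The median log2 fold change of the 9 was 0.03. The gene of SREBP2, srebf2, had 5.26, 3.93 and 3.78 CPM in WT and 4.98, 4.51 and 4.30 CPM in hm41 (log2 fold change 0.08, 95% confidence interval -0.29 to 0.45). Its relative srebf1, which serves fatty acid synthesis, had a log2 fold change of -0.20 (-0.59 to 0.19). For the escort scap it was 0.15 (-0.23 to 0.53), with 6.42 CPM in hm41 71 against 4.16 to 5.19 CPM in the others. The proteases that free SREBP and the sterol-linked ubiquitin ligase factors of this list included mbtps1 (-0.17) and erlin2 (0.16).

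Fatty acid synthesis, tested through 11 genes, had a median log2 fold change of 0.03. The library hm41 71 was highest for 2 of them, against 18.9% of all tested genes. The elongase elovl6 had the smallest p there, with 0.866, 0.891 and 0.882 CPM in WT and 0.613, 0.506 and 0.415 CPM in hm41 69, 70 and 71 (-0.78 ± 0.309, SE, adjusted p = 0.381, edgeR). In the isoprenoid branches that leave the route before squalene, the median of 9 genes was -0.15, with dhdds of dolichol synthesis at 0.41 and the farnesyltransferase subunit fnta at -0.25. None of the genes in either list was called by edgeR, where 0.0571% of all tested genes were.

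Of 18 genes for cholesterol uptake and transport, 0 were called, where 0.0571% of all tested genes were (edgeR). At an unadjusted p under 0.05, 1 of the 18 was higher and 1 lower (edgeR). These counts are near the shares over all tested genes, 5.35% higher and 5.05% lower. They were vldlr and lrp8, both lipoprotein receptor genes. The gene vldlr had 6.56, 6.40 and 6.56 CPM in WT and 8.89, 7.99 and 8.16 CPM in hm41 (log2 fold change 0.36 ± 0.152, SE, adjusted p = 0.422, edgeR). Its genotypes did not overlap, as for 8.09% of all tested genes with hm41 higher. The gene lrp8 had 5.72, 6.14 and 4.23 CPM in WT and 4.34, 3.54 and 3.10 CPM in hm41 (-0.54 ± 0.188, SE, adjusted p = 0.286, edgeR). Next by p came the intestinal sterol importer npc1l1 (-0.39) and the LDL receptor adaptor ldlrap1a (-0.73).

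A list of sterol export genes and other targets of the oxysterol receptor LXR, with the receptor gene itself, had a median log2 fold change of 0.24. Of its 11 genes, 0 were called, where 0.0571% of all tested genes were (edgeR). The library hm41 71 was highest for 5 of the 11, against 18.9% of all tested genes. The genotypes did not overlap, with hm41 higher, in 3 of the 11, against 8.09% of all tested genes. With hm41 lower this held for 1, against 8.44%. The ubiquitin ligase gene mylipb, whose mammalian counterpart degrades the LDL receptor, had the smallest p, with 1.36, 1.45 and 1.62 CPM in WT and 0.792, 1.05 and 1.17 CPM in hm41 (-0.55 ± 0.247, SE, adjusted p = 0.446, edgeR). The receptor gene nr1h3 itself had 0.24, lpcat3 had 0.43 and apoea -0.37. Of 9 genes for sterol breakdown, 3 could be tested, and 0 were called, against the same 0.0571%. One of the 3, the bile acid synthesis enzyme cyp7a1, had 1.86, 2.94 and 1.27 CPM in WT and 1.23, 2.05 and 3.76 CPM in hm41, again highest in hm41 71.

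Some markers of digestive organs also stood higher in hm41 71. The summed level of 13 liver genes was 540.0 CPM in that library and 285.5 to 386.3 CPM in the others. By genotype the range was 302.7 to 362.7 CPM in WT and 285.5 to 540.0 CPM in hm41. Of the 12 liver genes tested, 6 were highest in hm41 71, against 18.9% of all tested genes. Among the 6 were apobb.1 (455.1 CPM, against 224.3 to 322.4 CPM), serpina1 (9.62 CPM, against 3.33 to 4.95 CPM) and fgg (4.15 CPM, against 1.98 to 3.25 CPM). The liver fatty acid binding protein gene fabp10a was not, at 6.13 CPM against 4.83 to 9.44 CPM, and hpx had 2 counts in WT 66 and 0 elsewhere. The ferroxidase gene cp was lowest in hm41 71, at 0.781 CPM, and is named after its values were seen.

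The summed level of 7 gut genes was 183.0 CPM in hm41 71 and 104.0 to 122.8 CPM in the others, with 104.0 to 122.5 CPM in WT and 120.4 to 183.0 CPM in hm41. Of these, 4 of 7 were highest in hm41 71, against 18.9% of all tested genes. The 4 included apoa4b.1 (61.3 CPM, against 26.9 to 39.0 CPM) and anpepb (10.1 CPM, against 4.13 to 6.54 CPM). The gut transcription factor gene cdx1b was lowest there, at 0.684 CPM, and is likewise named after its values were seen. The gut genes vil1 (0.46) and apoa4b.2 (-0.60) had log2 fold changes of opposite sign, and edgeR called neither of them. DESeq2 called both (adjusted p = 0.0310 and 0.0447), out of 6 gut genes with an adjusted p, against 5.22% of all genes with one. The summed level of the 10 cholesterol genes in hm41 71 was 1.76 times the median of the other libraries, of the liver genes 1.75 times and of the gut genes 1.52 times. Most of the liver sum was apobb.1, and without it the other 12 liver genes summed to 84.9 CPM in hm41 71 and 61.1 to 71.8 CPM elsewhere, 1.33 times the median. No gene was left out of the cholesterol sum, which was 60.0 CPM in hm41 71 and 29.7 to 39.6 CPM elsewhere. Of that sum hmgcra alone was 17.3 CPM in hm41 71 and 4.15 to 6.07 CPM elsewhere, so the 1.76 and the 1.33 are not alike. Taken gene by gene, the ratio of hm41 71 to the median of the other libraries had a median of 1.90 for the 10 cholesterol genes, 1.33 for the liver genes and 1.44 for the gut genes. For hmgcra it was 3.22, for msmo1 4.06 and for lss 4.22. The part of digestive tissue in the levels of the cholesterol genes was not tested.

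**Figure D4:**
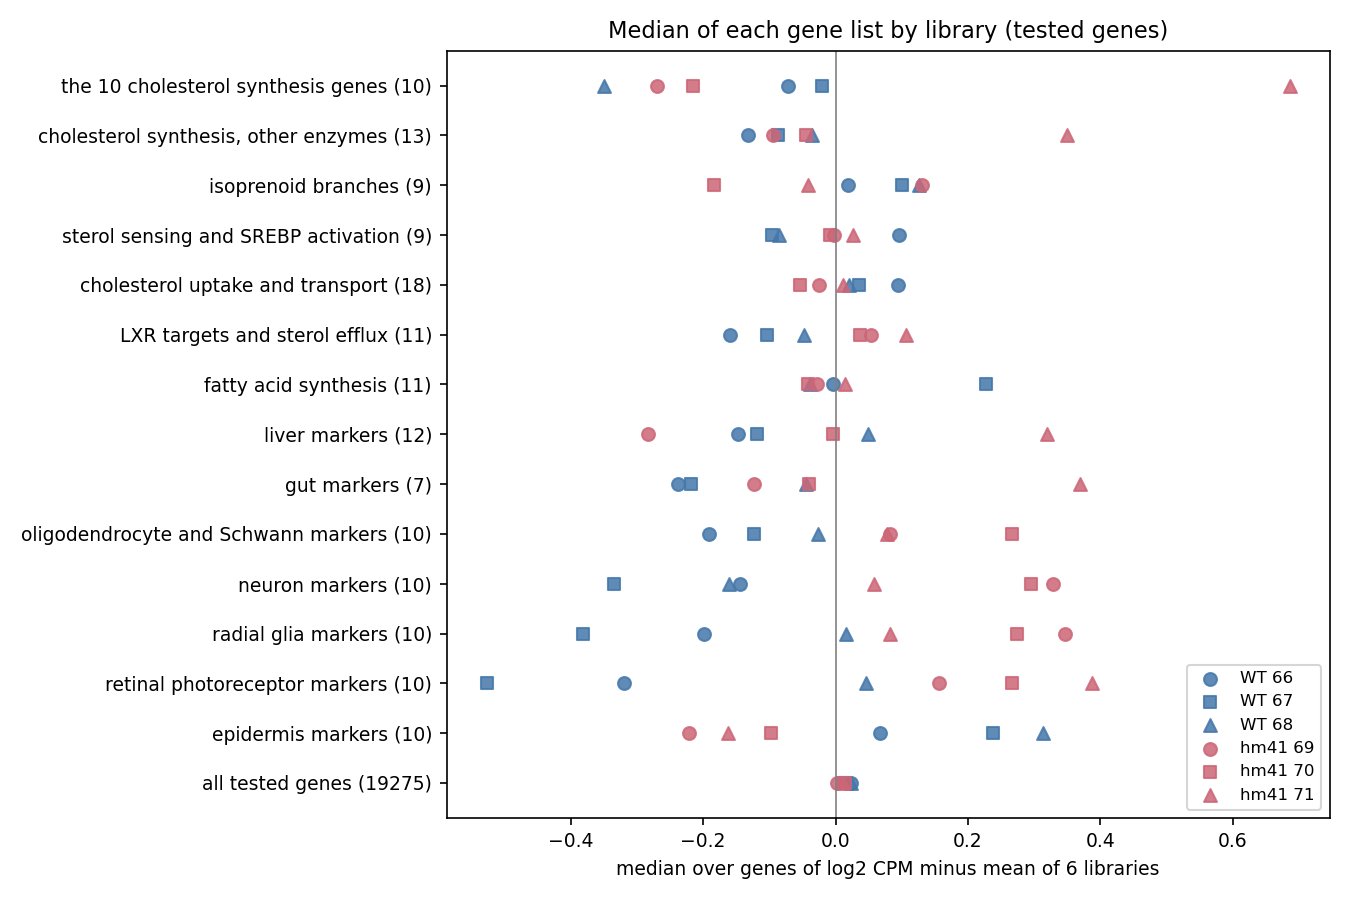
Median over the tested genes of each list (numbers in brackets) of log2 CPM minus the mean of the 6 libraries, with 1 point for each library (WT blue, hm41 red). For the 10 cholesterol synthesis genes hm41 71 lies at 0.69 and the other libraries between -0.35 and -0.02, and it is also the highest library for the other enzymes, LXR targets, the liver, the gut and photoreceptors, but not for neurons, radial glia or myelin.

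Summed over each list, markers of glia and neurons were higher in every hm41 library than in every WT library, and hm41 71 was not the highest. Gene by gene, the genotypes did not overlap, with hm41 higher, in 2 of 10 oligodendrocyte and Schwann cell genes. The same held for 3 of 10 radial glia genes and 5 of 10 tested neuron genes, against 8.09% of all tested genes. The summed level of 10 oligodendrocyte and Schwann cell genes was 21.0 to 25.2 CPM in WT and 26.6 to 33.9 CPM in hm41, highest in hm41 70. Of the 10, 0 were called, where 0.0571% of all tested genes were (edgeR). Log2 fold changes of the 10 were above 0 for 8, such as the myelin gene mbpa (0.46). They were below 0 for 2, cldnk (-0.42) and olig2 (-0.055), which are named after their values were seen. In cldnk every hm41 library was below every WT library, as for 8.44% of all tested genes. That of 10 radial glia genes was 78.9 to 103.2 CPM in WT and 116.0 to 134.2 CPM in hm41, and that of 11 neuron genes was 101.5 to 116.3 CPM and 131.0 to 166.6 CPM. In both lists all 10 tested genes had values above 0, such as cx43 (0.57) and stmn2b (0.74), with 0 called by edgeR, and gap43 had no count in any library. DESeq2 gave an adjusted p to 7 of the radial glia genes and called 2, cx43 (adjusted p = 0.0112) among them. Of 8 neuron genes with an adjusted p it called 4, with stmn2b (adjusted p = 0.00635) among them. It called 5.22% of all genes with an adjusted p. With no low-count filter edgeR called 3 of 10 neuron genes, against 131 of 27742 genes in all. The gene stmn2b was again one (adjusted p = 0.0288, edgeR). Of 10 tested photoreceptor genes, 1 was called, opn1sw1 (1.06 ± 0.188, SE, adjusted p = 0.0328, edgeR), where 0.0571% of all tested genes were. It no longer passed when WT 66, WT 67, hm41 70 or hm41 71 was left out (highest adjusted p 0.277, edgeR). The summed level of the list was 170.2 to 251.7 CPM in WT and 361.7 to 377.6 CPM in hm41. Most of that sum was opn1sw1, with 87.45 to 129.2 CPM in WT and 210.6 to 238.7 CPM in hm41. All 10 had values above 0. In 6 of the 10 the genotypes did not overlap, with hm41 higher, against 8.09% of all tested genes. They overlapped in the rod genes rho (0.057) and gnat1 (0.082), and also in pde6h (0.115) and arr3b (0.81). All of these are named after their values were seen. DESeq2 called 4 of the 9 photoreceptor genes to which it gave an adjusted p, against the same 5.22%. Of photoreceptor genes edgeR called 3 of 11 with no low-count filter, 3 of 10 without WT 68 and 2 of 10 without hm41 69. Over all genes these fits called 131 of 27742, 44 of 18687 and 20 of 20691. For 10 epidermal genes the sum was 1525 to 1714 CPM in WT and 1054 to 1147 CPM in hm41, with 0 called by edgeR. The largest part was krt4, with 745.7 to 801.1 CPM in WT and 445.0 to 630.5 CPM in hm41. Values were lower in hm41 for 9 genes, from krt5 (-0.83) to krt92 (-0.058), and higher for 1, tp63 (0.16). The genotypes did not overlap, with hm41 lower, in 5 of the 10 epidermal genes, against 8.44% of all tested genes. In tp63 every hm41 library was above every WT library, as for 8.09% of all tested genes. The genes krt4, krt92 and tp63 are named after their values were seen. The keratin gene krt5 passed in 3 other fits, by DESeq2 (adjusted p = 2.93e-05), by edgeR with no low-count filter (adjusted p = 0.00955) and by edgeR with a term for the split of libraries by the row LOC110438492 (adjusted p = 0.0447). DESeq2 called 4 of the 8 epidermal genes to which it gave an adjusted p, again against 5.22%. Whether these marker differences bear on the genotype values of cyp51, insig1 and lss was not tested.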

How the data were processed

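Pooled heads of WT and hm41 larvae were profiled by bulk RNA-seq, with directional libraries from total RNA per the labels' protocols. The authors deposited expected counts, estimated per gene and not scaled. The build GRCz11 and the tools RSEM, TopHat and Bowtie2 come from the submitters' processing notes, without role or version. Annotation and strand setting: not given in the sources used here. The single-cell library of the series mixes genotypes and was not analysed here.

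Expected counts were rounded and tested with edgeR 4.0.16 (R 4.3.3): filterByExpr (19275 genes), TMM normalization, the robust quasi-likelihood F-test, two-sided, with Benjamini-Hochberg adjustment and a threshold of 0.05. DESeq2 1.42.0 was an alternative. Log2 CPM values used a prior count of 2. The steps were tested on simulated data. Symbols of 14 further gene lists were matched directly or through RefSeq synonyms of GRCz12tu, which also gave chromosomes, and 164 of 168 symbols, the 10 genes included, were found. Sequences were not used here, and 1 gene of the pathway is not reported here.

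The 10 genes and the lists were chosen with earlier results of these data known. Named besides the 10 are the paralogs hmgcrb, sqleb, ldlrb and insig2, the regulators srebf1, srebf2 and scap, up to 4 genes of each list with the smallest p or past the threshold, and the 5 genes whose pattern over libraries is nearest to that of the 10. Other names are marked, or illustrate a list's members at 0 or 2 counts. No low-count row was removed beyond the filter. Precision is limited by 3 libraries per genotype and, for the lowest genes, by counts under 40.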

Additional observations from a re-analysis of the deposited data

How the results depend on the processing

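None of the 10 genes and none of the 13 other enzymes was called in any fit, whether with other scaling, filters or tools, a split term or each of the 6 libraries left out. DESeq2, however, gave an adjusted p to only 4 of the 10 and to 0 of the 13. The count of called genes overall was 11, and 47 with library totals alone, 131 with no low-count filter, 19 with a term for the split of libraries by the row LOC110438492, 191 by DESeq2, and 6 to 44 without 1 library (44 without WT 68, 20 without hm41 69, 6 without hm41 70). That row had 5141165, 2743068 and 2589780 counts in WT 68, hm41 70 and hm41 71. It had 6, 1 and 0 counts in WT 66, WT 67 and hm41 69. The labels do not explain this split, which falls unevenly on the genotypes. The number of the 10 genes at an unadjusted p under 0.05 was 3, and 5 with library totals alone and 1 to 4 without 1 library (1 without WT 68 or hm41 71). The share of all tested genes at that p was not determined with library totals alone or without 1 library. With library totals alone the adjusted p of hmgcra was 0.0721 and that of lss 0.0743 (edgeR). With TMM normalization they were 0.745 and 0.377 (edgeR). The median log2 fold change of the 10 was 0.30 and ranged from -0.06 to 0.48 without 1 library. That of the other enzymes was 0.23, and 0.44 with library totals alone and 0.068 to 0.37 without 1 library.

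Library totals alone moved the median of all genes from -0.02 to 0.20 and turned the sign of sqlea (0.008), ldlra (0.13), dhcr7 (0.032), hmgcrb (0.12), ldlrb (0.14), insig2 (0.059), srebf1 (0.068) and mbtps1 (0.054). The split term turned idi1 to -0.003. Without 1 library, signs turned within these ranges: hmgcra -0.065 to 1.11, hmgcs1 -0.30 to 0.38, sqlea -1.31 to 0.24, ldlra -0.27 to 0.14, idi1 -0.047 to 0.44, msmo1 -0.002 to 1.22, hmgcrb -0.27 to 0.018, ldlrb -0.31 to 0.13, insig2 -0.65 to 0.17, srebf2 -0.022 to 0.26, scap -0.016 to 0.29, ebp -0.21 to 1.01 and cyp7a1 -0.21 to 0.57. Those of lss (0.54 to 1.89), cyp51 (0.30 to 0.71), insig1 (0.27 to 0.53) and dhcr7 (-0.37 to -0.01) kept their sign. The cause of these changes was not tested. No paired analysis was possible because the 6 library numbers all differ.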

Other observations

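The genes nearest to the mean pattern of the 10 over the 6 libraries, among 9874 other genes with a mean of at least 1 CPM, were found by the root-mean-square distance of log2 CPM values centred on each gene's mean. They were nfkb2 (0.050), LOC100332969 (0.127), lsm7 (0.140), slc25a10 (0.142) and psma5 (0.150), in log2 units. The 10 genes themselves lay 0.248 to 0.614 from that mean. The transcription factor gene nfkb2 had 1.21, 1.29 and 0.988 CPM in WT and 0.971, 1.06 and 2.15 CPM in hm41 69, 70 and 71. The proteasome subunit gene psma5 had 5.79 CPM in hm41 71 and 2.61 to 3.35 CPM in the other libraries.

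Besides the 5 sterol synthesis genes, 44 others were at least 2-fold above every other library in hm41 71, and those named here were chosen after their values were seen. The ratio to the next highest library was largest for rsph1, a gene of motile cilia (4.51). Digestive enzyme genes were among them: the elastase ela3l had 14.1 CPM in hm41 71 and 3.35 to 6.18 CPM elsewhere, and the carboxypeptidase genes cpa4 and cpa1 had 3.03 and 0.708 CPM there. Others with a part in lipid handling were elovl2, an elongase of long polyunsaturated fatty acids (1.86 CPM, against 0.395 to 0.706 CPM), and star, whose product brings cholesterol into mitochondria for steroid synthesis (0.610 CPM, against 0.102 to 0.271 CPM). The glucokinase gene gck had 0.855 CPM there and at most 0.307 CPM elsewhere.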
